A study of Mus musculus with 4 samples.

Results

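The genes described here are 9 that move and hold mitochondria along axons, looked up by symbol in a table of 52636 genes. They are Rhot1, Rhot2, Trak1, Trak2, Kif5a, Kif5b, Kif5c, Kif1b and Snph, and each symbol had 1 row. Counts came from RNA sequencing of cells sorted from the dentate gyrus, the hippocampal region where granule neurons are still born in adult mice. Of the 4 libraries, 2 came from Fmr1-/y; Dcx-DsRed mice, which are hemizygous for a disrupted Fmr1, and 2 from wild type littermates, all of strain C57BL/6, aged 6 to 7 weeks and with no treatment named. DsRed is a red fluorescent protein that marks cells expressing doublecortin (Dcx), a microtubule protein of neuroblasts and young neurons. The protocol names sorts of 10000 cells, either of all living cells or of DsRed-positive ones, and the series' design names the DsRed-positive cells. The Fmr1 allele, and whether the libraries of a genotype came from different animals, are not stated in the labels, so p-values weigh differences only against the spread among 4 libraries, part of which may be technical.

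Mitochondria travel along axonal microtubules in both directions. On the outer mitochondrial membrane sit the Miro GTPases, encoded by Rhot1 and Rhot2, which bind calcium. The adaptors encoded by Trak1 and Trak2 link Miro to motors, among them kinesin-1, whose heavy chains are encoded by Kif5a, Kif5b and Kif5c and which walks away from the cell body. Kif1b encodes a kinesin-3 motor that has also been described as a mitochondrial carrier, and Snph encodes syntaphilin, which anchors axonal mitochondria to microtubules. FMRP, the product of Fmr1, binds mRNAs and controls their translation, and its loss causes fragile X syndrome.

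Library totals ran from 5478224 to 7213759 counts. The targeted gene Fmr1 had 431 and 636 counts in wild type replicates 1 and 2 and 254 and 183 in knockout replicates 1 and 2, so the genotypes did not overlap, the knockout was the lower, and transcript remained in it. Markers of young neurons were present, but the libraries also held other cells' transcripts. Summed over 8 markers of neuroblasts and immature neurons, the level was 2155 and 1072 CPM (counts scaled to a common library size by the TMM method) in wild type replicates 1 and 2 and 2591 and 1273 CPM in knockout replicates 1 and 2. The 6 astrocyte and radial glia markers summed to 6960 to 10218 CPM. The 5 markers of oligodendrocyte precursors, the dividing cells that give rise to myelinating glia, stood at 329 and 2531 CPM in the wild type and 416 and 3159 CPM in the knockout libraries. No marker of these 3 lists was at 0 in any library. The 6 oligodendrocyte markers summed to 1819 and 10416 CPM in the wild type and 3801 and 9508 CPM in the knockout libraries. The 8 mature neuron markers summed to 3315 and 4603 CPM in the wild type and 3061 and 6012 CPM in the knockout libraries. In bulk RNA, fewer cells of a type and less RNA per cell cannot be told apart.

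All 9 genes were well measured, with 376 to 9331 counts per gene and library, and together they took 0.271% to 0.433% of a library's counts. Per kilobase of gene length, the scale used here to set genes beside each other, Kif5a, Kif5c and Kif1b were the most abundant. That length covers a gene's exons together and is not that of a single transcript, so the order of genes depends on it. Their means over the 4 libraries were 97.6, 92.2 and 67.2 CPM per kilobase, with ranges of 50.2 to 176.0, 66.9 to 141.3 and 51.8 to 77.7, so these 3 neighbours overlapped. The next were Trak1 (mean 24.5), Kif5b (23.0), Trak2 (19.6), Rhot2 (17.9), Snph (14.1) and Rhot1 (9.55 CPM per kilobase). Trak1, Kif5b, Trak2, Rhot2 and Snph overlapped each other, and Rhot1, at 8.99 to 10.2, overlapped only with Snph. None of the 6 reached 50.2 CPM per kilobase, the lowest value among the first 3, and Trak2 came nearest at 36.1 in knockout replicate 2.

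**Figure D1:**
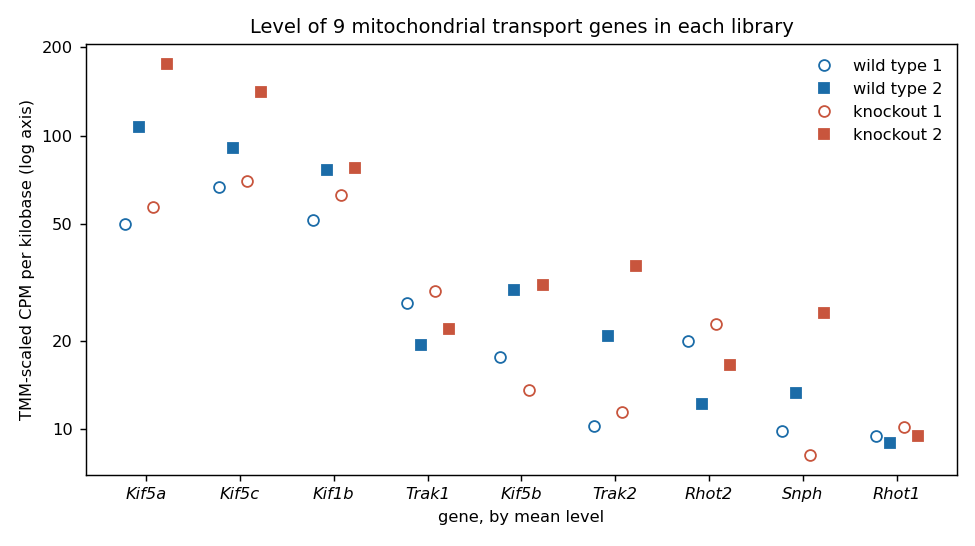
Level of each gene in each library in TMM-scaled CPM per kilobase (log axis), genes ordered by mean level. Circles are replicate 1 and squares replicate 2, blue is wild type and red is knockout. For Kif5a, Kif5b, Kif5c, Kif1b, Trak2 and Snph both squares lie above both circles, while for Trak1 and Rhot2 both lie below.

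None of the 9 genes passed the test between knockout and wild type, edgeR's quasi-likelihood F-test with p adjusted over all 14673 genes tested (Benjamini-Hochberg). That test called 0 genes (0%) in all at an adjusted p under 0.05, so Fmr1 itself was not called either. Before adjustment, 69 genes on the higher and 85 on the lower side had p under 0.05. The numbers before adjustment were 158 and 222 in DESeq2 and 42 and 45 in limma voom, neither of which called a gene. Among the 9 the adjusted p was 0.9999 for each, and unadjusted p ran from 0.313 for Kif5c to 0.853 for Kif5b. With 2 libraries a genotype the intervals were wide: for Trak2 the 95% interval of the ratio of knockout to wild type ran from 0.594 to 3.96, and for Rhot1, with the smallest standard error, from 0.655 to 1.73.

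Estimates lay above 0 for 8 of the 9 genes, Kif5b being the exception, and their median log2 fold change was 0.29. Over all genes tested 51.6% lay above 0 and the median was 0.02. Without knockout replicate 2, 3 of the 9 estimates lay above 0 and their median was -0.19. That fit sets knockout replicate 1 alone against both wild type replicates. Between libraries of the same number, the knockout was the higher for 7 of the 9 genes in replicate 1 and for 9 in replicate 2, beside 51.3% and 47.8% of all tested genes. The labels give no pairing, and each of these counts sets a single library against a single library. The genotypes did not overlap, with the knockout higher, for 1 of the 9, Rhot1, and for 11.8% of all tested genes. They did not overlap with the knockout lower for 0 of the 9 and for 13.7% of all tested genes.

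**Figure D2:**
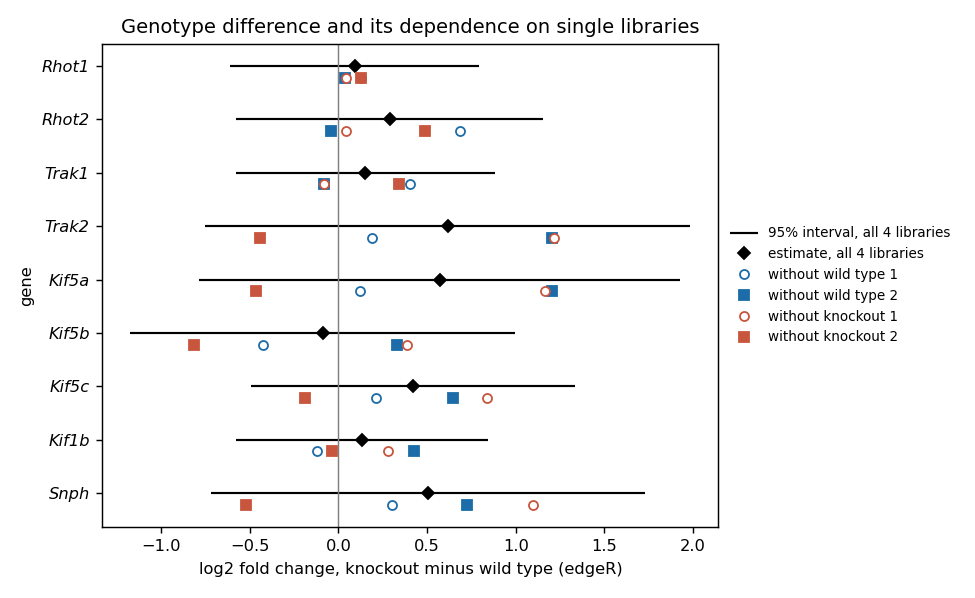
Log2 fold change of each gene, knockout minus wild type, as estimated by edgeR. Black diamonds and lines are the estimate and 95% interval from all 4 libraries, and coloured symbols are the estimates with 1 library left out. All 9 intervals span 0, and the filled red squares, without knockout replicate 2, lie below 0 for Trak2, Kif5a, Kif5b, Kif5c, Kif1b and Snph.

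Rhot1 and Rhot2 encode the Miro proteins, the receptors on the mitochondrial surface to which the transport machinery binds. Rhot1 (ENSMUSG00000017686.16, chromosome 11, 80209019 to 80267907, plus strand, GRCm38) was at 67.3 and 63.6 CPM in wild type replicates 1 and 2 and at 72.1 and 67.4 CPM in knockout replicates 1 and 2. These were the most even values of the 9 genes, and the genotypes did not overlap only because the higher wild type library, at 67.3 CPM, lay just under the lower knockout library, at 67.4 CPM. The log2 fold change was 0.09 (standard error 0.30).

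Rhot2 (ENSMUSG00000025733.17, chromosome 17, 25838457 to 25844851, minus strand) was at 89.2 and 54.1 CPM in the wild type and 101.5 and 73.6 CPM in the knockout libraries, in the same order of replicates. Replicate 1 was the higher library in both genotypes and the genotypes overlapped. Its log2 fold change was 0.29 (standard error 0.37), and it was -0.04 without wild type replicate 2. Exons of Rhot2 share 81 bases with Wdr90 on the same strand and 1307 bases with Gm20683, which was listed with 0 counts, so reads of the shared stretch are uncertain. Rhot2 made up 67.9% and 57.5% of the summed Rhot1 and Rhot2 counts per kilobase in the wild type and 69.2% and 63.5% in the knockout libraries. The means were 62.7% ± 7.29 and 66.3% ± 4.01 (SD, n = 2 each), and Rhot2 was the larger in every library on this scale. Its share of raw counts was 57.0% and 46.0% in the wild type and 58.5% and 52.2% in the knockout libraries.

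Trak1 and Trak2 encode the adaptors that join Miro to the motors. Trak1 (ENSMUSG00000032536.11, chromosome 9, 121297502 to 121474918, plus strand) was at 339.2 and 243.9 CPM in the wild type and 372.5 and 275.4 CPM in the knockout libraries. Trak2 (ENSMUSG00000026028.12, chromosome 1, 58900449 to 58973430, minus strand) was at 72.6 and 147.3 CPM in the wild type and 81.5 and 255.7 CPM in the knockout libraries. The adaptors thus ran in opposite directions across libraries: Trak1 was lower and Trak2 higher in replicate 2 of both genotypes. For neither gene did the genotypes separate.

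The genotype estimates of the adaptors were log2 fold changes of 0.15 (standard error 0.31) for Trak1 and 0.62 (standard error 0.58) for Trak2. The Trak2 estimate was the largest of the 9, and it became -0.44 without knockout replicate 2. Trak1 turned to -0.08 without wild type replicate 2 and to -0.08 without knockout replicate 1. Trak2 made up 27.5% and 51.7% of the Trak counts per kilobase in the wild type and 27.9% and 62.2% in the knockout libraries. The replicate 1 libraries thus had nearly the same make-up in both genotypes. In replicate 2 Trak2 was the more abundant of the pair on this scale, but not in raw counts. Its share of raw counts was 17.6% and 37.7% in the wild type and 17.9% and 48.1% in the knockout libraries.

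The DNA upstream of the start of each adaptor gene is shown as a description. Whether these sequences bear on the levels of Trak1 and Trak2, or on their opposite directions between replicates, was not tested. The windows hold the 250 bases before the annotated start on GRCm38.p6, from RefSeq, in which 7 of the 9 genes had an entry. The window of Trak1 (chr9:121297252-121297501, plus strand) lies before the farthest upstream of its 4 listed starts, the one of the 4 whose window is wholly outside the annotated gene. That of Trak2 is chr1:58973483-58973732 on the minus strand. Bases just after the start were found in a GENCODE M21 transcript of the gene for this Trak1 start but not for the Trak2 start, so the latter is less certain. Capitals mark the GC box, GGGCGG on either strand, the motif bound by Sp1-type factors, counted also where matches overlap.
Trak1: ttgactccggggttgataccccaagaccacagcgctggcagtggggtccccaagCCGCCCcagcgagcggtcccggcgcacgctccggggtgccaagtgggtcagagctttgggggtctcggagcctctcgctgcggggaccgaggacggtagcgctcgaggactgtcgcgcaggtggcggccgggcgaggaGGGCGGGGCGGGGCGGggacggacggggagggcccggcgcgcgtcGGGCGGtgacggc
Trak2: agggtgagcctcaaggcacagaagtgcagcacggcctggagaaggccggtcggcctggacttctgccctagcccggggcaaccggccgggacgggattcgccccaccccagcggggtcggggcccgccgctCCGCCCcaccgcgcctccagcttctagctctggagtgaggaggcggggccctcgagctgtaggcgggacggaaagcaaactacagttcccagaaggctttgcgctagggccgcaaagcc
The Trak1 window shown held 5 GC boxes and the Trak2 window 1, and 32.7% of 32817 such windows held at least 1. The other 3 Trak1 windows held 1, 0 and 0 GC boxes, with GC contents of 55.2%, 53.6% and 53.2%, so the contrast with Trak2 depends on the start chosen, and which starts were used in these cells was not tested. Neither window shown held a TATA box (TATAAA on either strand), which 12.4% of the windows held. The 2 windows shown had GC contents of 75.6% and 69.6%, against a median of 52.4%.

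Kif5a, Kif5b and Kif5c encode the heavy chains of kinesin-1, of which Kif5a and Kif5c are mainly neuronal and Kif5b is expressed in most tissues. Kif5a (ENSMUSG00000074657.5, chromosome 10, 127225696 to 127263348, minus strand) was at 350.8 and 746.4 CPM in wild type replicates 1 and 2 and 400.9 and 1230 CPM in knockout replicates 1 and 2. Kif5c (ENSMUSG00000026764.15, chromosome 2, 49619298 to 49774778, plus strand) was at 477.6 and 649.4 CPM in the wild type and 498.9 and 1009 CPM in the knockout libraries. Both were highest in knockout replicate 2 and next highest in wild type replicate 2, so the genotypes overlapped.

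Kif5b (ENSMUSG00000006740.13, chromosome 18, 6201002 to 6242174, minus strand) was at 130.2 and 220.9 CPM in the wild type and 100.6 and 229.7 CPM in the knockout libraries. The knockout libraries were the lowest and the highest of the 4. Log2 fold changes were 0.57 (standard error 0.57) for Kif5a, 0.42 (standard error 0.39) for Kif5c and -0.09 (standard error 0.46) for Kif5b. Without knockout replicate 2 they were -0.46, -0.19 and -0.82. The Kif5b estimate turned to 0.33 without wild type replicate 2 and to 0.39 without knockout replicate 1. The 3 genes are close paralogues, and how the authors' counting treated reads common to them is not stated, so their counts are uncertain. Exons of Kif5b also share 182 and 142 bases with the antisense genes AC113003.1 and Gm17036. The deposited length of Kif5b was 7395 bases, against 7981 in GENCODE M21, so its level per kilobase depends on the annotation.

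As a share of kinesin-1 heavy chain counts per kilobase, Kif5b was the steadiest of the 3 within a genotype. It made up 13.1% and 13.1% in the wild type and 9.66% and 8.92% in the knockout libraries, means of 13.1% ± 0.0356 and 9.29% ± 0.524 (SD, n = 2 each). The difference of -3.81 percentage points was larger than the spread between replicates, and the genotypes did not overlap. The two-sided exact permutation test gave p = 0.333, the smallest that 2 libraries against 2 can give, and 0.834 after adjustment over the 5 paralogue shares compared, so the test could not pass a threshold of 0.05. With 1 library left out in turn, the difference ran from -4.18 to -3.44 percentage points. Its sign could not change, since the genotypes did not overlap, so this range adds no test of the difference.

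The other shares did not separate the genotypes. Kif5a made up 37.3% and 46.9% of the family in the wild type and 40.7% and 50.5% in the knockout libraries, and Kif5c made up 49.7% and 40.0% in the wild type and 49.6% and 40.6% in the knockout libraries. Kif5c was thus the leading heavy chain in the replicate 1 libraries and Kif5a in the replicate 2 libraries of both genotypes. Set against Kif5b, Kif5a stood at 2.85 and 3.57 times its level per kilobase in the wild type and at 4.22 and 5.66 times in the knockout libraries. The exact permutation p was 0.667 for the shares of Kif5a, Trak2 and Rhot2 and 1 for Kif5c.

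**Figure D3:**
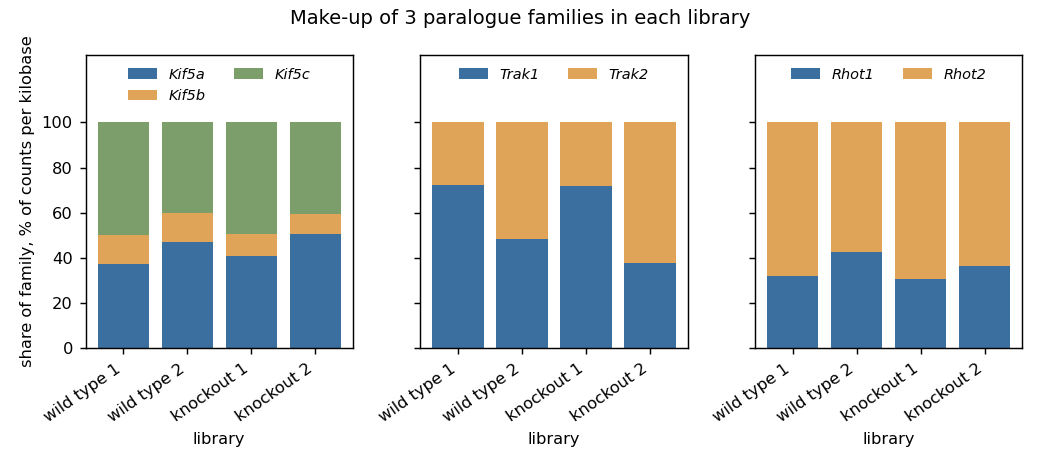
Make-up of the kinesin-1 heavy chain, Trak and Miro gene families in each library, as the share of the family's counts per kilobase. Kif5b takes 13.1% of its family in both wild type libraries and 9.66% and 8.92% in the knockout libraries, while the Trak2 share differs mainly between replicate 1 and replicate 2.

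Kif1b (ENSMUSG00000063077.14, chromosome 4, 149176319 to 149307693, minus strand) had the most counts of the 9, at 912.6 and 1344 CPM in the wild type and 1109 and 1367 CPM in the knockout libraries. Replicate 2 was again the higher in both genotypes, and the genotypes overlapped. Its log2 fold change was 0.13 (standard error 0.30), which became -0.12 without wild type replicate 1 and -0.04 without knockout replicate 2. The gene's isoforms carry different cargoes, synaptic vesicle precursors among them, and a count per gene does not separate them.

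Snph encodes syntaphilin, the anchor that holds axonal mitochondria in place. Snph (ENSMUSG00000027457.15, chromosome 2, 151590549 to 151632593, minus strand) was at 77.8 and 105.0 CPM in the wild type and 64.2 and 195.4 CPM in the knockout libraries. The lowest and the highest value were both in the knockout, which also had the larger spread, with means of 91.4 ± 19.2 and 129.8 ± 92.8 CPM (SD, n = 2 each). The log2 fold change was 0.51 (standard error 0.52), and it was -0.52 without knockout replicate 2. Like Trak2, Snph was higher in replicate 2 of both genotypes, as were Kif5a, Kif5b, Kif5c and Kif1b. Between the replicate 1 libraries the ratio of knockout to wild type was 0.825 for Snph and 1.12 for Trak2. The 250 bases before the Snph start (chr2:151632594-151632843, minus strand, GRCm38.p6, RefSeq) are shown beside those of the adaptors. The windows of Rhot1, Rhot2, Kif5c and Kif1b are not shown.
Snph: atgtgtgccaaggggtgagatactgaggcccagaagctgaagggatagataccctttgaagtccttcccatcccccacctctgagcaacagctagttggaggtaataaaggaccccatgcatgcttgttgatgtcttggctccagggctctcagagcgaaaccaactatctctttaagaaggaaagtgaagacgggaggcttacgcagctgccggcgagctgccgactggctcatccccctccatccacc
This window held 0 GC boxes and 6 CpG dinucleotides, the same number as the median of all windows, and its GC content was 54.4%. The Trak1 and Trak2 windows shown held 33 and 21 CpG. Of the windows not shown, those of Kif1b, a gene higher in replicate 2, held 3 and 4 GC boxes and 32 and 35 CpG. That of Rhot2, a gene lower in replicate 2, held 2 GC boxes and 12 CpG. The Rhot1 window held 1 GC box and 18 CpG, and the Kif5c window 0 GC boxes and 11 CpG.

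The libraries of one genotype also differed from each other. The labels number the replicates and say nothing of what a shared number means. Between replicate 2 and replicate 1 the ratio of CPM was 2.13 in the wild type and 3.07 in the knockout for Kif5a, and 2.03 and 3.14 for Trak2. These 2 of the 9 genes were at least 2-fold higher in replicate 2 in both genotypes, as were 5.96% of all tested genes. Kif5b had ratios of 1.70 and 2.28, Kif5c of 1.36 and 2.02, Snph of 1.35 and 3.04, and Kif1b of 1.47 and 1.23. On the other side, Rhot2 had ratios of 0.607 and 0.725 and Trak1 of 0.719 and 0.739, and Rhot1 stayed near 1 at 0.946 and 0.935. Over all tested genes the median ratio was 0.997 in the wild type and 0.988 in the knockout.

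Summed levels of the cell type marker lists also differed between replicate 2 and replicate 1, though not every marker followed its list. Summed CPM of the 8 neuroblast and immature neuron markers had replicate 2 to replicate 1 ratios of 0.497 in the wild type and 0.491 in the knockout, and 0 of the 8 were higher in replicate 2 of both genotypes. The 8 mature neuron markers had ratios of 1.39 and 1.96, with 6 of 8 higher in replicate 2 of both genotypes. Camk2a, a kinase of mature excitatory neurons, had 2.30 and 3.61 and was the only 1 of the 8 at least 2-fold higher in replicate 2 of both genotypes. Without it, a choice made after seeing the data, the summed ratios were 1.11 and 1.36. Among the other 7, Nrgn had 0.764 and 1.21, Syp 0.986 and 1.05, and Nefl, a neurofilament subunit, 1.59 and 2.45. The 5 oligodendrocyte precursor markers had 7.70 and 7.60 and the 6 oligodendrocyte markers 5.73 and 2.50, with all of each list higher in replicate 2 of both genotypes. Astrocyte and radial glia markers had 0.848 and 0.681, and dividing cell markers 0.554 and 0.258. Microglial markers summed to at most 97.8 CPM and endothelial markers to at most 49.4 CPM, with Ctss and Pecam1 at 0 in wild type replicate 1 and Cldn5 at 0 in knockout replicate 1. The 3 inhibitory neuron markers had summed ratios of 1.16 and 2.08, with 2 of the 3 higher in replicate 2 of both genotypes. The part of these markers' cells in the levels of the 9 genes was not tested.

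**Figure D4:**
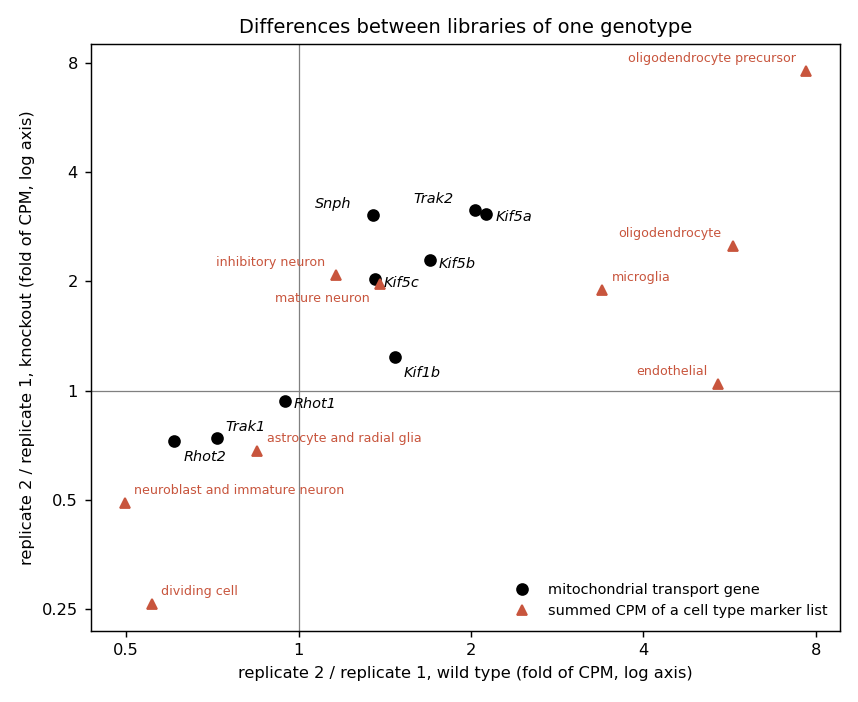
Ratio of CPM between replicate 2 and replicate 1 in wild type (horizontal, log axis) and knockout (vertical, log axis). Black points are the 9 genes and red triangles the summed CPM of each cell type marker list. Kif5a and Trak2 lie near 2 in wild type and 3 in knockout. Rhot1, Rhot2 and Trak1 lie below 1 on both axes. The neuroblast and immature neuron, the astrocyte and radial glia, and the dividing cell markers do so too.

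Other genes of mitochondrial transport were described from 4 lists with 55 genes in the table, of which 54 were tested. None was called and 0 had an unadjusted p under 0.05 in edgeR's test. Estimates lay above 0 for 25 and below 0 for 29, with a median log2 fold change of -0.01. The genotypes did not overlap for 8 of the 54 with the knockout higher (14.8%, beside 11.8% of all tested genes) and for 13 with the knockout lower (24.1%, beside 13.7%). The lists were written with earlier results of these data known, so these counts are a description.

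Among kinesin light chains and cargo adaptors, 5 of 12 estimates lay above 0. Klc1, the light chain most abundant per kilobase, which couples kinesin-1 to cargo, was at 560.8 and 400.0 CPM in the wild type and 523.5 and 428.1 CPM in the knockout libraries. Fez1, an adaptor that binds kinesin-1, was at 185.3 and 260.4 CPM in the wild type and 180.2 and 207.1 CPM in the knockout libraries. Neither separated the genotypes, and Klc1 had higher replicate 1 libraries where Kif5a, Kif5b and Kif5c had lower ones.

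Dynein and dynactin, which carry mitochondria back to the cell body, had 10 of 24 estimates above 0. Dynll2, a dynein light chain, was at 232.4 and 364.6 CPM in the wild type and 276.4 and 418.8 CPM in the knockout libraries, and Actr1a, the actin-related protein of the dynactin filament, at 204.6 and 189.5 CPM and at 204.1 and 170.6 CPM. Both sets overlapped between genotypes. None of the 24 was at least 2-fold higher in replicate 2 of both genotypes, although Pafah1b1 (Lis1), a dynein regulator named after its values were seen, came close with ratios of 1.99 and 2.04. Dynlt1a, a light chain that was also chosen for its values, had 29 and 41 counts in the wild type and 4 and 0 in the knockout libraries, with an unadjusted p of 0.0768 in edgeR's test. It has close copies in the mouse genome, so its counts are uncertain.

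Regulators and partners of Miro and Trak had 8 of 14 tested estimates above 0. Ogt, the enzyme that attaches N-acetylglucosamine to Trak1 and other proteins, was at 520.3 and 521.3 CPM in the wild type and 467.5 and 461.6 CPM in the knockout libraries. Its genotypes did not overlap, and its log2 fold change was -0.16 (standard error 0.25). Pink1, a kinase that marks damaged mitochondria and targets Miro, was at 99.3 and 137.5 CPM in the wild type and 99.8 and 138.5 CPM in the knockout libraries. Its values repeated almost exactly between genotypes and differed between replicate 1 and replicate 2. Mgarp, a mitochondrial protein reported to join Miro and Trak under low oxygen, had 0 counts in all 4 libraries.

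Myosins that move or dock mitochondria on actin had 2 of 4 estimates above 0. Myo5a was at 291.3 and 392.3 CPM in the wild type and 291.2 and 526.1 CPM in the knockout libraries, and Myo6 at 205.3 and 274.6 CPM and at 149.5 and 277.2 CPM. Both were higher in replicate 2 of both genotypes. Myo19, the myosin that binds mitochondria through Miro and was named after its values were seen, was at 11.0 and 7.20 CPM in the wild type and 20.7 and 15.2 CPM in the knockout libraries. It separated the genotypes with a log2 fold change of 0.98 (standard error 0.60), and its unadjusted p was 0.149 in edgeR's test.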

How the data were processed

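The authors deposited a single table of raw counts for each gene in 4 libraries, 2 per genotype, together with gene lengths in bases, which equal the summed exon length in GENCODE M21 for 7 of the 9 genes. STAR 2.5.3a and GRCm38 are named in the submitters' processing notes, and a Gencode annotation in the labels' protocols. The libraries were strand-specific per the labels' protocols. The sources used here name neither the release nor the counting tool with its strand option, which leaves overlapping genes uncertain. In the deposited table, 0 further columns of per-sample values were found.

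The members and lists were chosen with earlier results of these data known. Named were the 9 genes, Fmr1, the 2 genes of each pathway list with the highest level per kilobase, any with an unadjusted p under 0.05, and a few marker genes. Pafah1b1, Dynlt1a, Myo19, Mgarp, Nrgn, Syp and Nefl fall outside that rule and were named after their values were seen. Over all genes with a count, chi-square per degree of freedom was 31.5 between wild type and 46.4 between knockout replicates. Replicates of a genotype were thus not copies of each other, and libraries of different genotypes were not compared in this way. Counts of all genes were filtered with filterByExpr, scaled by TMM and tested with edgeR 4.0.16 in R 4.3.3 (estimateDisp, robust glmQLFit, two-sided quasi-likelihood F-test, design with genotype alone). A gene was called where its p, adjusted by Benjamini-Hochberg, was under 0.05. The standard error of an estimate was taken as its absolute value over the square root of F. Replicate ratios used for the share of all genes had 0.5 CPM added. Alternatives were other scalings and filters, DESeq2 1.42.0, limma voom (limma 3.58.1), the replicate number as a block, and leaving out each library. Positions are from GENCODE M21, chosen here.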

Additional observations from a re-analysis of the deposited data

How the results depend on the processing

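Across 11 alternatives the 9 genes gave 99 estimates, of which 88 kept their sign, 11 turned and 0 were called, the smallest adjusted p being 0.541. All 11 turns came from leaving out a library, and the cause was not tested. With each library left out in turn, log2 fold changes ran from -0.041 to 0.69 for Rhot2, -0.081 to 0.40 for Trak1, -0.44 to 1.22 for Trak2, -0.46 to 1.21 for Kif5a, -0.82 to 0.39 for Kif5b, -0.19 to 0.84 for Kif5c, -0.12 to 0.43 for Kif1b and -0.52 to 1.10 for Snph. Leaving out knockout replicate 2 turned Trak2, Kif5a, Kif5c, Kif1b and Snph, leaving out wild type replicate 2 turned Rhot2, Trak1 and Kif5b, leaving out knockout replicate 1 turned Trak1 and Kif5b, and leaving out wild type replicate 1 turned Kif1b. The number of estimates above 0 ran from 3 to 8 with a library left out and was 8 under each other alternative. With the replicate block, edgeR called 10 genes in place of 0, none of them among the 9. Kif5a had the smallest adjusted p among the 9 in that edgeR fit, 0.541 (0.00425 unadjusted). Trak2 and Kif5c had unadjusted p of 0.0236 and 0.0296 in the same edgeR fit (0.861 and 0.880 adjusted), and the rest of the 9 were above 0.05. Genes with an unadjusted p under 0.05, which were 69 higher and 85 lower, numbered 414 and 364 with the block, 125 and 137 without a filter, and 38 to 337 and 19 to 716 with a library left out. Same-numbered libraries deviated from their genotype's mean with a correlation of 0.364 over tested genes, but the labels give no pairing. The differences in the shares of Kif5a, Kif5c, Trak2 and Rhot2 changed sign with a library left out. That of Kif5b could not, since its genotypes do not overlap. Each gene had at least 376 counts per library, and the common biological coefficient of variation between libraries was 0.538.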
